A study of Mus musculus with 5 samples.

Results

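The 10 genes described here are Lamp1, Lamp2, Cd63, Cln3, Mcoln1, Grn, Dnase2a, Tfeb, Tfe3 and Mitf, which encode proteins of the lysosome and the MiT transcription factors that drive lysosomal genes. They were taken by gene name from a table of 23234 genes, and all 10 names were found. Lamp1, Mcoln1 and Dnase2a lie on chromosome 8, Lamp2 and Tfe3 on chromosome X, Cln3 on 7, Grn on 11, Tfeb on 17, Cd63 on 10 and Mitf on 6 (GRCm38). Expression was measured by RNA sequencing in mouse spleen, in NP-binding donor B cells sorted from the light zone of germinal centres. The donor naive B cells were Csk(fl/fl) or Csk(+/+), and both kinds carried ERT2cre(KI/+), a Cre recombinase switched on by tamoxifen, B1-8hi(KI/+), a knocked-in antibody heavy chain that binds the hapten NP, and the CD45.1/2 marker. The recipients were C57BL/6J mice, which kept B cells of their own. Immunization with NP-CGG in alum was on day 0, tamoxifen followed on days 8 and 9, and the cells were sorted on day 11. Csk encodes a kinase that keeps Src family kinases inactive by phosphorylating their C-terminal tail, and tamoxifen was given to delete it. There were 2 libraries labelled Csk(f/f) and 3 labelled Csk(+/+), all from tamoxifen-treated mice, and the design text calls them biological replicates. The ages of the mice, and whether cells of several mice were pooled in a library, are not given in the sources used here.

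Lysosomes are the acidic compartments in which cells degrade what they take up and what autophagy delivers. B cells of the light zone capture antigen through their receptor and break it down in late endosomes and lysosomes, from which peptides are loaded on MHC class II. TFEB, TFE3 and MITF bind a short DNA element, the CLEAR element, in the promoters of many lysosomal genes. When nutrients are plentiful the kinase complex mTORC1 phosphorylates TFEB and TFE3 on the lysosome surface, and 14-3-3 proteins then hold them in the cytoplasm, so the transcript level of these factors does not show their activity.

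Values are FPKM, fragment numbers divided by transcript length and library size, so that levels of different genes can be compared. The deposited low values put the depth at about 23.7 M and 9.53 M fragments for the libraries labelled Csk(f/f) and about 15.8 M, 19.4 M and 11.9 M for the Csk(+/+) libraries. The test, limma on log2(FPKM + 1), covered 10242 genes that reached 1 FPKM in at least 2 libraries, with the threshold set at an adjusted p of 0.05. Csk itself had 453 and 476 FPKM in libraries labelled Csk(f/f), against 378, 436 and 415 FPKM in the Csk(+/+) libraries (log2 fold change 0.18, limma adjusted p = 0.439). A value for the whole gene also counts exons that Cre leaves in place, so it leaves the labels unchecked and every direction below is one between labelled groups. All 6 B cell markers and all 6 germinal centre B cell markers examined were detected above 1 FPKM, among them Cd79a (1370 ± 26.7 FPKM, SD, n = 2, against 1130 ± 182, SD, n = 3). Fold changes across all genes followed the GC content of the transcript (Spearman rho 0.71 across 10119 genes, which are not independent replicates), so fold changes after a correction for that trend are given beside those as deposited for the 8 tested genes and for the listed genes named below. Library Csk(+/+) replicate 3 stood apart from the rest: without it 128 genes passed as higher and 283 as lower in libraries labelled Csk(f/f), against 4 and 4 with all 5 libraries.

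The promoters of 3 of the 10 genes held the core of the CLEAR element, CACGTG. Promoter sequences of all 10 genes were found in a RefSeq table of GRCm38.p6, each with 250 bases before the transcription start and 50 bases after it. Lamp1 held CACGTG at 4 places, and Cln3 and Mcoln1 each held it at 2 places. In Cln3, which has a further listed start without the motif, and in Mcoln1 it lay once within the longer form TCACGTGA. Both motifs are palindromes, so both strands are read at once, and the longer contains the shorter. Of all 32851 promoters in the table, 7.15% held CACGTG and 0.974% TCACGTGA, and 0.0244% (8 promoters) held CACGTG 4 or more times. Counted by gene over any listed start, CACGTG was held by 12.4% and TCACGTGA by 2.61% of the 7282 tested genes that have a listed promoter. Dnase2a and Grn, which differed most between the groups, held no CACGTG in this window, and neither did Lamp2, Cd63, Tfeb, Tfe3 or Mitf. Only exact matches were counted, and variants of the motif were not searched. A match is a description of these letters and not a site shown to be bound. The 250 bases before the start are shown for the 3 genes with the motif and for Dnase2a and Grn, to set the genes with the largest differences beside those that carry it. They run 5′ to 3′ on the gene's strand, from RefSeq on GRCm38.p6, with CACGTG in capitals.
Lamp1 promoter, chr8:13158911-13159160, strand +: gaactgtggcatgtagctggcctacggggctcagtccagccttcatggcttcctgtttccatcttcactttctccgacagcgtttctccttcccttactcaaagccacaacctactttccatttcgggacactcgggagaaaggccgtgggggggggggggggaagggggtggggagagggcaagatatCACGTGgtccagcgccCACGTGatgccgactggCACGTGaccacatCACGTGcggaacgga
Mcoln1 promoter, chr8:3500269-3500518, strand +: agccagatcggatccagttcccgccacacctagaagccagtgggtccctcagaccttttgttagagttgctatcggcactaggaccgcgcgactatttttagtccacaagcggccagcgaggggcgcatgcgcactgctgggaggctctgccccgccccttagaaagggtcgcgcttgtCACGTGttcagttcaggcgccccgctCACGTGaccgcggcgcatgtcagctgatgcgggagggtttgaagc
Cln3 promoter, chr7:126583237-126583486, strand -: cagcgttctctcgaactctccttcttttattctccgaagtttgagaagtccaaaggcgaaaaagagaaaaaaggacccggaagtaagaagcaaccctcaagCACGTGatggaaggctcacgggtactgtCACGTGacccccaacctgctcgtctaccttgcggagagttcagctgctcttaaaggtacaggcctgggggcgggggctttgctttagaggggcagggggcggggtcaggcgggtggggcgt
Dnase2a promoter, chr8:84908505-84908754, strand +: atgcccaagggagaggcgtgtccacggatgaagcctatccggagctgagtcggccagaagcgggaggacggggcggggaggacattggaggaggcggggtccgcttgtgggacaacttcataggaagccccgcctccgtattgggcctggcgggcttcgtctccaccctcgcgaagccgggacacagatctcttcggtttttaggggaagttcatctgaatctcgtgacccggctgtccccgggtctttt
Grn promoter, chr11:102430257-102430506, strand +: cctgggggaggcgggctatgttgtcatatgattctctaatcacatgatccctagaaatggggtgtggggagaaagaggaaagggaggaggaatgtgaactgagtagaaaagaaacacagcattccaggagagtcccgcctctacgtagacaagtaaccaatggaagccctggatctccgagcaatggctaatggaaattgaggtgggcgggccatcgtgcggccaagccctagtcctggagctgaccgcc

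In light zone cells the 10 genes covered a wide range of levels. Lamp1 was the most abundant in both groups, at 143 ± 6.44 FPKM in libraries labelled Csk(f/f) (SD, n = 2) and 96.7 ± 4.32 FPKM in the 3 Csk(+/+) libraries (SD), and Tfeb came next. In libraries labelled Csk(f/f), Grn, Dnase2a, Tfe3, Lamp2, Mcoln1 and Cln3 followed in that order, and the neighbours Tfe3 and Lamp2, and Mcoln1 and Cln3, had overlapping libraries. In the Csk(+/+) libraries the order after Tfeb was Lamp2, Grn, Tfe3, Dnase2a, Cln3 and Mcoln1, and there Lamp2, Grn and Tfe3 each overlapped the next in order, as did Cln3 with Mcoln1, while Dnase2a and Cln3 were apart. Among all tested genes Lamp1 stood at the 92.0th percentile of mean FPKM, Tfeb at the 87.5th and Cln3, the lowest of the 8, at the 39.9th. These 8 genes were above 1 FPKM in every library, with a lowest value of 4.51, so the filter on low values did not pick them by group. Their values rested on an estimated 172 to 7815 fragments per gene and library, taking the longest transcript.

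Cd63 and Mitf were at or near 0 in these cells and were not tested. Cd63, a tetraspanin of late endosomes and of the vesicles that cells release, had 0.278 and 0 FPKM in libraries labelled Csk(f/f) and was listed at 0 in all 3 Csk(+/+) libraries. Mitf, the MiT factor best known from melanocytes, had 0 and 0.0437 FPKM in libraries labelled Csk(f/f) and was listed at 0 in all 3 Csk(+/+) libraries. Cufflinks tables can list 0 where estimation failed, and neither gene is given a fold.

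With all 5 libraries weighted equally and not paired by replicate number, none of the 8 tested genes passed the threshold, where 0.0781% of all tested genes passed (8 genes, 0.0391% higher and 0.0391% lower). Nor did any of the 8 pass with the GC correction as the single change, where 0.0791% of all tested genes did. At an unadjusted p under 0.05 by limma, 5 of the 8 were higher in libraries labelled Csk(f/f) and 0 lower, where 8.07% of all tested genes were higher and 13.6% lower. The 2 groups of libraries did not overlap for 6 of the 8, all higher in libraries labelled Csk(f/f), against 20.7% of all tested genes that lay higher without overlap and 24.5% that lay lower. In bulk RNA, fewer or more cells of a type and less or more RNA per cell cannot be told apart. The median log2 fold change of the 8 was 0.52, and 7 were positive, where the median of all tested genes was -0.01. After the GC correction the median of the 8 was 0.44 and that of all genes 0, with 5 of the 8 higher at an unadjusted p under 0.05 and 0 lower (all genes: 4.89% higher, 5.07% lower). These were not the same 5 genes. Tfeb went from an unadjusted limma p of 0.0225 to 0.833 with the correction, and Lamp2 from 0.41 to 0.0218. The median deviation of the 8 genes from their own mean, on the log2 scale, was 0.29 and 0.27 in libraries labelled Csk(f/f) and -0.18, -0.13 and -0.27 in the Csk(+/+) libraries.

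**Figure D1:**
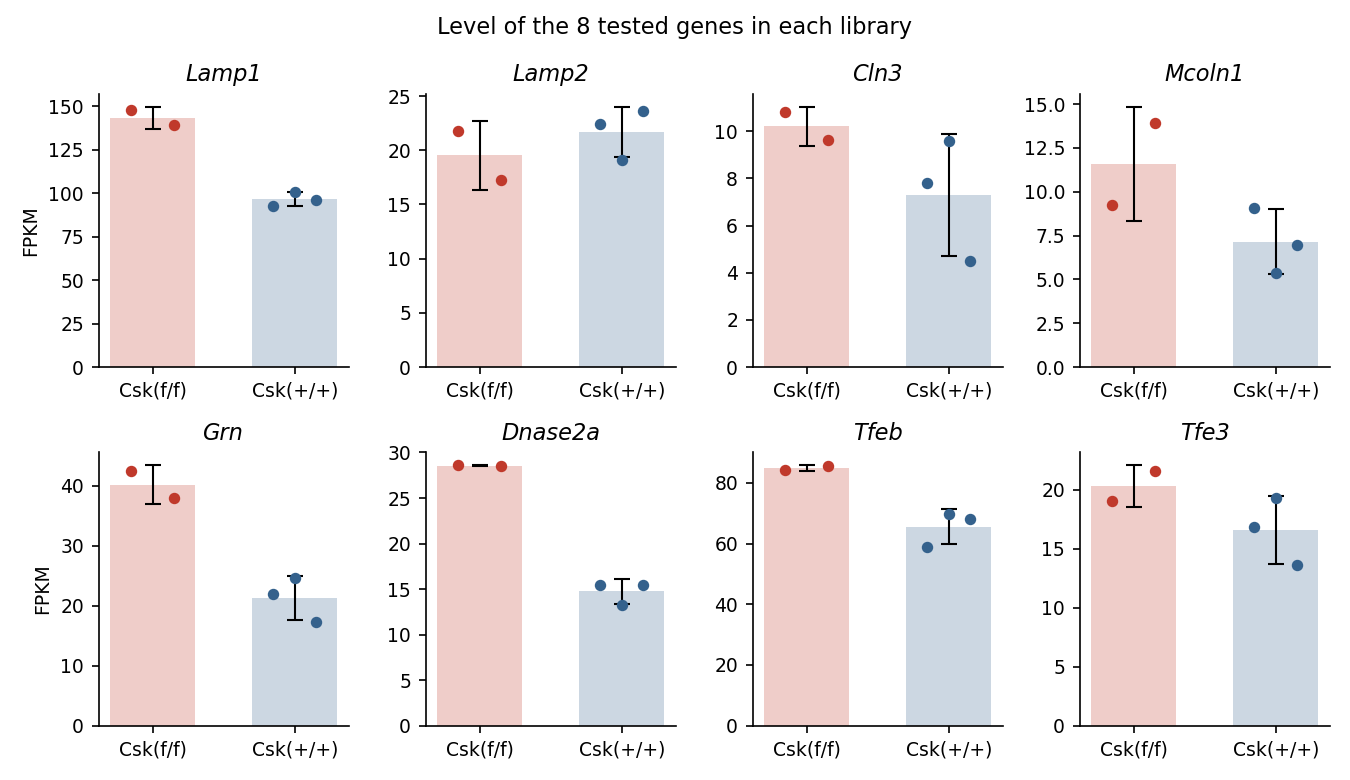
FPKM of the 8 tested genes in libraries labelled Csk(f/f) (red, n = 2) and Csk(+/+) (blue, n = 3); points are libraries, bars are means and error bars are SD. The groups do not overlap for Lamp1, Cln3, Mcoln1, Grn, Dnase2a and Tfeb, and they overlap for Lamp2 and Tfe3; Cd63 and Mitf, at or near 0, are not drawn.

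Lamp1 and Lamp2, the most abundant glycoproteins of the lysosomal membrane, differed in the sign of their fold change as deposited. Lamp1 had 148 and 139 FPKM in libraries labelled Csk(f/f), against 92.6, 101 and 96.2 FPKM in the Csk(+/+) libraries. Both libraries labelled Csk(f/f) lay above all 3 others, with a log2 fold change of 0.56 ± 0.12 (SE; a fold of 1.48, 95% interval 1.22 to 1.79), and the limma adjusted p was 0.154. Lamp2, whose splice forms include the receptor of chaperone-mediated autophagy, had 21.8 and 17.3 FPKM in libraries labelled Csk(f/f), against 22.4, 19.1 and 23.6 FPKM in the Csk(+/+) libraries. Its groups overlapped, with a log2 fold change of -0.15 ± 0.17 (SE; 95% interval -0.54 to 0.24) and a limma adjusted p of 0.617. A gene-level value adds up its splice forms.

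The ratio of Lamp1 to Lamp2 in FPKM was 6.8 and 8.0 in libraries labelled Csk(f/f), against 4.13, 5.29 and 4.09 in the Csk(+/+) libraries. The groups did not overlap for this ratio (log2 difference 0.72, two-sided exact permutation p = 0.1, the smallest p that 10 splits of 2 and 3 libraries allow). The longest Lamp2 transcript has a GC content of 38.7%, lower than that of all but 2.75% of tested genes, and the longest Lamp1 transcript 51.6%. After the GC correction Lamp2 changed sign, to a log2 difference of 0.35 ± 0.12 (SE, limma adjusted p = 0.442), while Lamp1 kept 0.47 ± 0.13 (adjusted p = 0.416). The corrected ratio was 5.80 and 5.23 in libraries labelled Csk(f/f), against 4.72, 5.34 and 5.22 in the Csk(+/+) libraries, so that the groups overlapped (exact permutation p = 0.4). The difference between the 2 LAMP genes thus depended on whether GC content was corrected for. Exons of Lamp1 also overlap exons of Grtp1 on the opposite strand, which was at most 6.83 FPKM; whether strand was used in counting is not given in the sources used here.

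The other 2 tested membrane proteins had low levels and wide spreads. Mcoln1, the calcium channel TRPML1 whose calcium release activates the phosphatase calcineurin and so dephosphorylates TFEB, had 9.27 and 13.9 FPKM in libraries labelled Csk(f/f), against 9.10, 5.39 and 6.98 FPKM in the Csk(+/+) libraries. Its groups were apart by a narrow margin and the library labelled Csk(f/f) replicate 2 stood well above the other 4 (log2 fold change 0.63 ± 0.26, SE, limma adjusted p = 0.222, and 0.59 after the GC correction). Without that library the log2 fold change was 0.36. Cln3, the membrane protein whose loss causes juvenile Batten disease in people, had 10.8 and 9.62 FPKM in libraries labelled Csk(f/f), against 7.79, 9.59 and 4.51 FPKM in the Csk(+/+) libraries. The 2 groups all but touched, and Csk(+/+) replicate 3 was the lowest library. With all 5 libraries the log2 fold change of Cln3 was 0.48 ± 0.28 (SE, limma adjusted p = 0.333), and without Csk(+/+) replicate 3 it was 0.21 (adjusted p = 0.383, over the 17 alternatives 0.21 to 0.779).

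Cln3 lies on chromosome 7, with 9 protein-coding genes between it and Gdpd3 in the GENCODE order. Gdpd3, a lysophospholipase D gene, had 44.7 and 40.8 FPKM in libraries labelled Csk(f/f), against 0.738, 0.870 and 0.627 FPKM in the Csk(+/+) libraries, and passed the threshold (limma adjusted p = 4.56e-05). Genes between the 2 were matched by GENCODE name only, so tested genes listed under older names could be missed. Of those matched and tested, Mapk3 had a log2 fold change of 0.39 (adjusted p = 0.176), Slx1b -0.41 (0.258), Bola2 -0.12 (0.720) and Coro1a 0.16 (0.682). Exons of Cln3 also overlap exons of Apobr on the opposite strand, which was at most 0.855 FPKM.

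The largest differences among the 10 genes were in the lysosomal lumen. Dnase2a, the acid endonuclease that degrades DNA in lysosomes, had 28.6 and 28.5 FPKM in libraries labelled Csk(f/f), against 15.5, 13.2 and 15.5 FPKM in the Csk(+/+) libraries. The groups were far apart relative to their spread (means of 28.5 ± 0.117 and 14.7 ± 1.34 FPKM, SD), the log2 fold change was 0.91 ± 0.15 (SE; a fold of 1.88, 95% interval 1.48 to 2.39), and by unadjusted limma p Dnase2a ranked 20 among 10242 genes, though its adjusted p was 0.128. Grn, the gene of progranulin, which lysosomal proteases cut into granulins, had 42.5 and 37.9 FPKM in libraries labelled Csk(f/f), against 22, 24.6 and 17.3 FPKM in the Csk(+/+) libraries. Every library labelled Csk(f/f) was again above every Csk(+/+) library, with Csk(+/+) replicate 3 the lowest (log2 fold change 0.90 ± 0.18, SE; a fold of 1.86, 95% interval 1.40 to 2.47; limma adjusted p = 0.137). After the GC correction the log2 fold changes were 0.67 ± 0.16 for Dnase2a (SE, adjusted p = 0.357) and 0.64 ± 0.14 for Grn (SE, adjusted p = 0.348).

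Whether Lamp1, Grn and Dnase2a passed the threshold depended on how Csk(+/+) replicate 3 and the library weights were handled. With array weights, which let limma weight the 5 libraries unequally, all 3 passed, with adjusted p-values of 0.0286, 0.0237 and 0.0209. In that fit 194 of all 10242 tested genes passed as higher and 477 as lower. Without Csk(+/+) replicate 3 all 3 passed as well, with adjusted p-values of 0.0428 for Lamp1 (over its alternatives 0.0286 to 0.779), 0.034 for Grn (0.0237 to 0.779) and 0.0262 for Dnase2a (0.0209 to 0.779), in a fit where 1.26% of all tested genes passed as higher. Their log2 fold changes there were 0.56, 0.76 and 0.95. With that library left out and the GC correction made as well, the log2 fold changes were 0.52, 0.55 and 0.76, and the adjusted p-values of 0.0941, 0.0951 and 0.0804 missed the threshold.

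**Figure D2:**
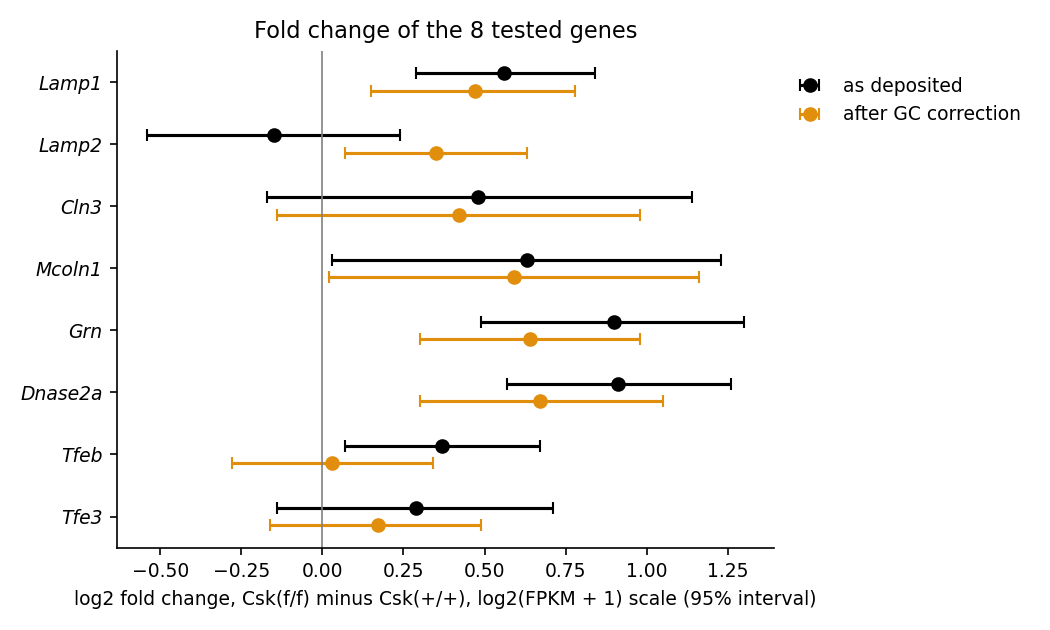
Log2 fold change of the 8 tested genes, libraries labelled Csk(f/f) minus Csk(+/+), on the log2(FPKM + 1) scale with 95% intervals, as deposited (black) and after the GC correction (orange). The intervals of Lamp1, Mcoln1, Grn and Dnase2a lie above 0 in both; Lamp2 moves from -0.15 as deposited to 0.35 after the correction, and Tfeb from 0.37 to 0.03.

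Of the MiT factors, Tfeb was by far the most abundant in these cells. It had 84.2 and 85.6 FPKM in libraries labelled Csk(f/f), against 59.0, 69.8 and 68.1 FPKM in the Csk(+/+) libraries. The groups did not overlap, at a log2 fold change of 0.37 ± 0.13 (SE; a fold of 1.29, 95% interval 1.05 to 1.59; limma adjusted p = 0.190). Its longest transcript has a GC content of 63.2%, at the 99.0th percentile of tested genes, and after the GC correction the log2 difference was 0.03 ± 0.13 (SE, 95% interval -0.28 to 0.34, adjusted p = 0.964). Tfe3 had 19.1 and 21.6 FPKM in libraries labelled Csk(f/f), against 16.9, 19.3 and 13.6 FPKM in the Csk(+/+) libraries. The groups overlapped (log2 fold change 0.29 ± 0.18, SE, limma adjusted p = 0.366, and 0.17 after the GC correction). Leaving out Csk(+/+) replicate 3 gave a log2 fold change of 0.16.

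Tfeb made up 81.5% and 79.6% of the summed FPKM of Tfeb, Tfe3, Mitf and the further family member Tfec in libraries labelled Csk(f/f), against 77.7%, 78.3% and 83.3% in the Csk(+/+) libraries. Those shares overlapped between the groups. Tfec had 0 and 0.243 FPKM in libraries labelled Csk(f/f) and was listed at 0 in all 3 Csk(+/+) libraries. The ratio of Tfeb to Tfe3 was 4.18 ± 0.308 in libraries labelled Csk(f/f) (SD, n = 2) and 4.03 ± 0.843 in the Csk(+/+) libraries (SD, n = 3; exact permutation p = 0.8).

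**Figure D3:**
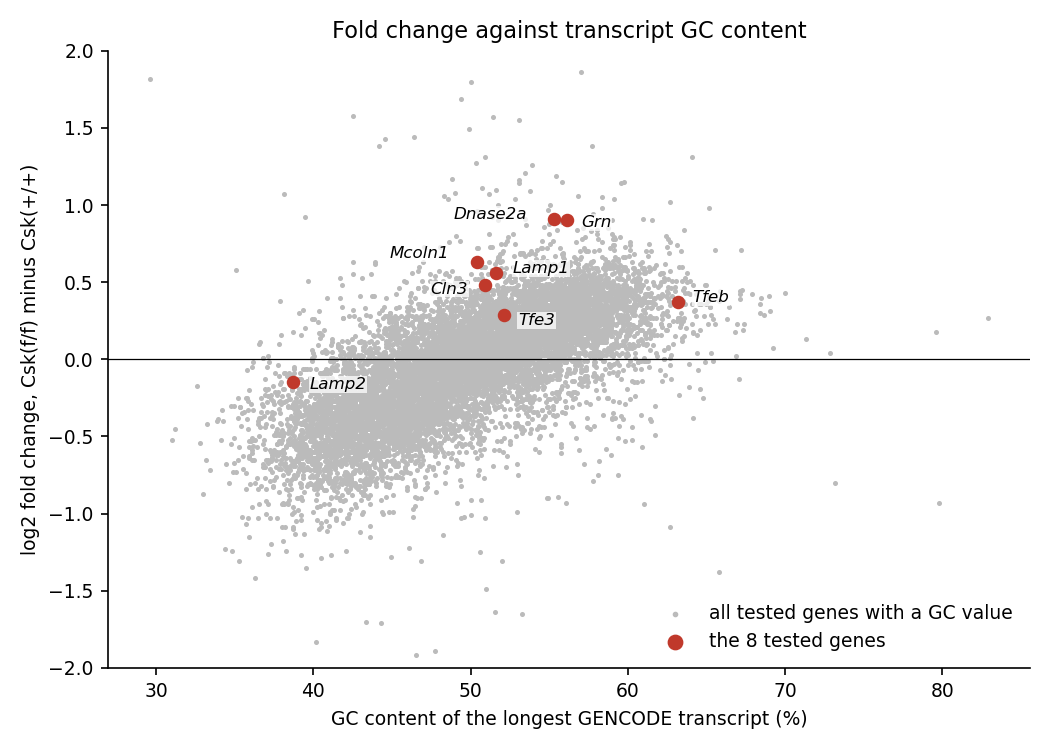
Log2 fold change (libraries labelled Csk(f/f) minus Csk(+/+)) against the GC content in percent of the longest GENCODE transcript, for all tested genes with a GC value (grey) and the 8 tested genes (red). Fold changes are higher at higher GC content (rho 0.71); Lamp2 sits at the low end at 38.7%, Tfeb at the high end at 63.2%, and 44 genes lie beyond the y axis.

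Genes upstream of the MiT factors had fold changes of both signs. Of 24 tested genes of mTORC1, the Rag GTPases and their regulators, calcineurin, 14-3-3 proteins and further kinases that act on TFEB or mTORC1, 0 passed and 4 had a higher and 5 a lower mean at an unadjusted limma p under 0.05 (1 and 2 once corrected for GC), and the median log2 fold change was -0.07 (0.04 after it). Ywhaz, a 14-3-3 protein, had 141 ± 0.791 FPKM in libraries labelled Csk(f/f) (SD, n = 2) and 209 ± 19.1 FPKM in the Csk(+/+) libraries (SD, n = 3; adjusted p = 0.154). Flcn, folliculin, which acts on RagC and RagD so that TFEB and TFE3 are phosphorylated, had 25.2 ± 0.485 and 13.0 ± 4.56 FPKM in those groups (adjusted p = 0.166), with 24.9 and 25.5 against 14.7, 16.5 and 7.82 in single libraries. Ppp3r1, the regulatory subunit of calcineurin, had 31.0 ± 2.98 FPKM in libraries labelled Csk(f/f) and 44.0 ± 5.39 in the Csk(+/+) libraries (adjusted p = 0.171), and Tsc2, which restrains mTORC1, had 22.9 and 16.5 FPKM (0.191). The log2 difference of Ppp3r1 was -0.49, or -0.07 once corrected for GC, and that of Flcn 0.97 and 0.74. Ywhaz had -0.56 and -0.32 once corrected, and Tsc2 0.45 and 0.23.

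Other proteins of the lysosomal membrane had mostly higher means in libraries labelled Csk(f/f). Of 31 tested, 0 passed, 8 had a higher and 1 a lower mean at an unadjusted limma p under 0.05 (6 and 0 once corrected for GC), 24 were positive, and the median log2 fold change was 0.23 (0.25 after it). Atp13a2, a lysosomal polyamine transporter, had 60.3 ± 5.25 FPKM in libraries labelled Csk(f/f) (SD, n = 2) and 36.4 ± 7.06 in the Csk(+/+) libraries (SD, n = 3; adjusted p = 0.154). Sidt2 had 46.8 ± 0.943 and 32.7 ± 6.49 FPKM in those groups, Cln6, in fact a protein of the endoplasmic reticulum that moves lysosomal enzymes out of it, 12.6 ± 0.0569 and 8.81 ± 0.636, and Tmem55b, which positions lysosomes, 69.5 ± 1.29 and 54.8 ± 2.03 (adjusted p from 0.180 to 0.190). The log2 fold change was 0.73 for Atp13a2, 0.52 for Sidt2 and 0.47 for Cln6 as deposited, and 0.39, 0.25 and 0.22 once corrected for GC, whereas Tmem55b had 0.34 and 0.36.

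Luminal enzymes also lay mostly higher, and so did 12 of 17 tested genes of the proton pump. Of 45 tested hydrolases and activators, 0 passed, 21 had a higher and 0 a lower mean at an unadjusted limma p under 0.05 (12 and 0 once corrected for GC), with a median log2 fold change of 0.39 (0.29 after it). Hexa, a hexosaminidase subunit, had 59.3 ± 4.14 FPKM in libraries labelled Csk(f/f) (SD, n = 2) and 29.5 ± 5.39 in the 3 Csk(+/+) libraries (SD) (adjusted p = 0.128). Gaa, the acid alpha-glucosidase, and Psap, prosaposin, had log2 fold changes of 1.14 and 0.86. Once corrected for GC, the log2 fold change was 0.77 for Hexa (1.00 as deposited), 0.82 for Gaa and 0.64 for Psap. Of 17 tested V-ATPase genes, whose products acidify the lysosome, 0 passed, 5 were higher and 0 lower at that unadjusted p (7 and 0 after the correction), with a median of 0.26. Its proteolipid gene Atp6v0c had 200 ± 3.52 FPKM in libraries labelled Csk(f/f) and 122 ± 8.89 in the Csk(+/+) libraries, followed by Atp6v0b (114 ± 10.3 and 70.3 ± 4.95), Atp6ap1 (68.3 ± 5.41 and 41.1 ± 6.85) and Atp6v0a1 (21.7 ± 1.22 and 13.0 ± 3.46), with adjusted p-values from 0.128 to 0.176. Their log2 fold changes as deposited were 0.70, 0.69, 0.73 and 0.73 in that order, and once corrected for GC 0.58, 0.43, 0.65 and 0.89. Of the 17 V-ATPase genes, 8 lay higher and 2 lower without overlap (all tested genes: 20.7% and 24.5%). The 2 lower were Atp6v1a (log2 fold change -0.41, or -0.12 corrected for GC) and Atp6ap2 (-0.31, or 0.14). Genes named Atp6v1 ran from -0.41 to 0.28 as deposited, and from -0.12 to 0.44 once corrected.

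Genes that carry proteins to lysosomes, or move and fuse them, were closer to the median of all genes. Of 18 tested sorting genes, 0 passed, 3 had a higher and 1 a lower mean at an unadjusted limma p under 0.05 (1 and 0 once corrected for GC), with a median log2 fold change of 0.10. Gga1 had 33.4 ± 0.886 FPKM in libraries labelled Csk(f/f) (SD, n = 2) and 24.8 ± 1.53 in the 3 Csk(+/+) libraries (SD), and Gga2, likewise an adaptor of the mannose-6-phosphate receptors, 98.9 ± 2.35 and 76.0 ± 8.05. Ap1b1 (58.7 and 44.8 FPKM) and Ap3m1 (5.21 and 7.79 FPKM) are adaptor complex subunits. The log2 fold change of Gga1 was 0.42 and 0.08 once corrected for GC, that of Gga2 0.38 and 0.32, that of Ap1b1 0.39 and 0.17 and that of Ap3m1 -0.50 and -0.11. Of 22 tested fusion and transport genes, 0 passed, 3 were higher and 2 lower at that unadjusted p (3 and 0 of 21 after the correction), with a median of 0.09. Vac14, a scaffold of the PIKfyve lipid kinase, had 65.8 ± 2.08 FPKM in libraries labelled Csk(f/f) and 45.2 ± 4.03 in the Csk(+/+) libraries, Vamp7, a SNARE of late endosomes, 2.03 ± 0.670 and 4.55 ± 1.07, Plekhm2 16.8 and 10.8, and Vps18, a HOPS subunit, 17.3 and 11.8. Once corrected for GC, the log2 fold change was 0.31 for Vac14 (0.54 as deposited), 0.27 for Plekhm2 (0.59) and 0.23 for Vps18 (0.53), and Vamp7 (-0.87) had no GC value.

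Among 12 tested progranulin partners and tetraspanins related to Cd63, 0 passed, 4 had a higher and 1 a lower mean at an unadjusted limma p under 0.05 (4 and 0 once corrected for GC), with a median log2 fold change of 0.29 (0.19 after it). Psap, the prosaposin that binds progranulin, had 239 ± 6.03 FPKM in libraries labelled Csk(f/f) (SD, n = 2) and 132 ± 16.8 in the Csk(+/+) libraries (SD, n = 3; adjusted p = 0.128). Sort1, the sortilin receptor that takes up progranulin, stayed under 1 FPKM in every library. Unlike Cd63, the leukocyte tetraspanin genes Cd53 and Cd37 were abundant. Cd37 had 951 ± 34.2 FPKM in libraries labelled Csk(f/f) and 728 ± 84.8 in the Csk(+/+) libraries, with a log2 difference of 0.39, and of 0.10 once corrected for GC. Cd53 had 93.4 ± 2.23 FPKM in libraries labelled Csk(f/f) and 135 ± 4.03 in the Csk(+/+) libraries, with a log2 difference of -0.53, and of -0.06 once corrected for GC. Tspan31 had 23.2 ± 1.68 and 17.8 ± 1.04 FPKM in those groups (adjusted p = 0.211; log2 difference 0.37, or 0.36 corrected).

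**Figure D4:**
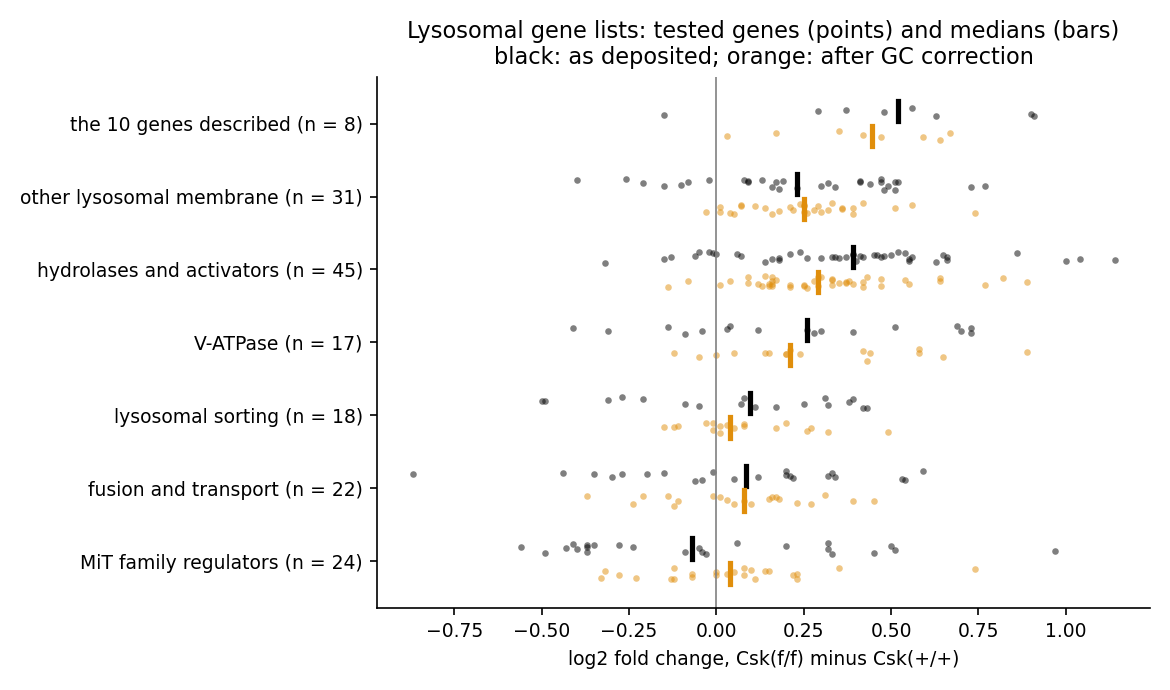
Log2 fold change (libraries labelled Csk(f/f) minus Csk(+/+)) of each tested gene (points) and the median (bars) for the 10 genes described and 6 lysosomal gene lists, as deposited (black) and after the GC correction (orange). The medians run from 0.52 for the 10 genes described (8 tested) to -0.07 for MiT family regulators as deposited; lists share some genes, and none was tested as a list.

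Macrophages, which engulf dying germinal centre cells, are rich in lysosomes, and their markers were examined beside these values. The summed FPKM of 16 macrophage markers was 15.5 and 13.5 in libraries labelled Csk(f/f), against 9.02, 10.5 and 6.40 in the Csk(+/+) libraries, and so was higher in the same libraries as Lamp1, Grn and Dnase2a. In all libraries but Csk(+/+) replicate 3 most of the sum was Lyz2, the lysozyme gene, at 12.1 and 10.2 FPKM in libraries labelled Csk(f/f) and 6.56, 8.01 and 1.91 FPKM in the Csk(+/+) libraries (limma adjusted p = 0.228). The log2 difference of Lyz2 was 1.06, or 1.14 corrected for GC. Of the 16 markers 14 were under 1 FPKM in every library. Of these, 3 were higher without overlap in libraries labelled Csk(f/f) and 1 lower (Spic). Emr1, which encodes F4/80, was at 0.191 and 0.346 FPKM in libraries labelled Csk(f/f), against 0.095, 0.077 and 0.076 in the Csk(+/+) libraries, and C1qc, a complement chain, at 0.318 and 0.225 against 0.068, 0 and 0. Cd163 was at 0.064 and 0.101 FPKM in libraries labelled Csk(f/f), against 0.016, 0.064 and 0.039 in the Csk(+/+) libraries, a gap too small for the printed digits to show. Csf1r was at 0.337 and 0.417 in libraries labelled Csk(f/f), against 0.443, 0.538 and 0.084 in the Csk(+/+) libraries, and Mertk was listed at 0 in all 5. All 7 markers of mast cells and basophils were under 1 FPKM in every library. Of 8 dendritic cell markers 6 were, of 7 T cell markers 5 and of 6 neutrophil markers 5, and the summed dendritic cell markers came to 43.6 and 49.9 FPKM in libraries labelled Csk(f/f) and 50.5, 44.8 and 45.2 FPKM in the Csk(+/+) libraries. The T cell marker Thy1 was higher without overlap in libraries labelled Csk(f/f), at 3.51 and 4.62 FPKM, against 1.86, 2.27 and 1.16 FPKM in the Csk(+/+) libraries (limma adjusted p = 0.155). The log2 difference of Thy1 was 0.89, or 0.63 corrected for GC. Lck, the other T cell marker above 1 FPKM, was lower without overlap, at 105 and 106 FPKM in libraries labelled Csk(f/f), against 107, 113 and 122 FPKM (limma adjusted p = 0.595). Its log2 difference was -0.11, or -0.32 corrected for GC. Cd3e and Cd3g were listed at 0 in all 5 libraries. Of 6 plasma cell markers 3, Sdc1, Prdm1 and Tnfrsf17, were under 1 FPKM in every library. Among the others, Igj had 85.3 ± 8.21 FPKM in libraries labelled Csk(f/f) (SD, n = 2) and 134 ± 19.9 in the Csk(+/+) libraries (SD, n = 3, limma adjusted p = 0.154). The log2 difference of Igj was -0.64, or -0.13 corrected for GC. Xbp1 had 109 ± 10.4 and 86.9 ± 6.81 FPKM in those groups and Irf4 15.2 ± 2.91 and 10.8 ± 3.15 (limma adjusted p = 0.223 and 0.303). The log2 difference was 0.32 for Xbp1, or 0.16 corrected for GC, and 0.49 for Irf4, or 0.61 corrected. The part of these markers in the results was not tested.

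For each tested gene the profile most like its own was sought over the 5 libraries among 9105 tested genes listed above 0 in all of them (predicted genes, receptor gene segments and annotated non-coding genes left out), by the root mean square distance of centred log2(FPKM + 1). The nearest to Dnase2a was Bri3 (distance 0.0726, with 50.3 and 47.3 FPKM in libraries labelled Csk(f/f), against 23.8, 21.8 and 27.4 in the Csk(+/+) libraries). Abhd12, a lipase of lysophosphatidylserine, was nearest to Lamp1 (0.0252), Tubb2b, a tubulin, to Grn (0.0800) and Alg1, a mannosyltransferase, to Mcoln1 (0.143). Prr5, a subunit of the kinase complex mTORC2, was nearest to Tfeb (0.00963), at 121 and 123 FPKM in libraries labelled Csk(f/f), against 85.8, 99.5 and 97.7 in the Csk(+/+) libraries. Sh2b2 lay nearest to Tfe3 (0.0137), Llgl2 to Cln3 (0.0512) and Zfp953 to Lamp2 (0.0306). With 5 libraries many genes lie close to any profile, and these names describe likeness only.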

How the data were processed

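The authors deposited FPKM for each gene, 1 column per library; the submitters' processing notes name TopHat2 2.0.8, Cufflinks 2.1.1 and mm9. The annotation and any scaling between libraries are not given in the sources used here. Per the labels' protocols, TRIzol was used for RNA and a NEBNext Ultra kit for libraries. All 5 columns were mapped by their titles, and 1 line repeating a header was left out.

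limma 3.58.1 in R 4.3.3 (trended prior, Benjamini-Hochberg adjustment) was run on log2(FPKM + 1) over 10242 genes with at least 1 FPKM in at least 2 libraries. Fold changes are on that scale, which understates those of low genes. The fit was also checked on simulated data. There all genes and libraries had the same noise, without a GC trend or an outlying library, so the check does not cover those features. For the GC correction, deviations from each gene's mean were smoothed per library by lowess (span 0.3) and the smooth was taken off, against the GC content of the longest GENCODE M21 (GRCm38) transcript, matched by name for 10119 tested genes (98.8%) and all 10 members. No coordinates were moved between builds. Depth was read from the lowest FPKM values of genes with transcripts of at least 1500 nt.

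The members and lists were chosen with earlier results of these data known. Named genes were all members, Csk, up to 4 genes with the smallest p from each list, and the gene nearest in profile to each member, and some of these are not reported here. The genes between Cln3 and Gdpd3, Cd37, Sort1, Atp6v1a, Atp6ap2 and the single cell type markers were chosen after their values were seen. Alternatives changed the pseudocount, filter, scaling, prior, library weights, replicate block, GC correction and libraries left out. No test over a list was made.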

Additional observations from a re-analysis of the deposited data

How the results depend on the processing

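Among 17 alternatives, Lamp1, Cln3, Mcoln1, Grn, Dnase2a, Tfeb and Tfe3 kept a positive log2 fold change in all, with Dnase2a at 0.67 to 0.95, Grn at 0.55 to 1.00, Lamp1 at 0.47 to 0.61, Tfeb at 0.03 to 0.42, Mcoln1 at 0.36 to 0.90, Cln3 at 0.21 to 0.69 and Tfe3 at 0.09 to 0.40. Lamp2 turned positive with the GC correction (0.35), that correction with the replicate block (0.38) or without Csk(+/+) replicate 3 (0.39), and without Csk(f/f) replicate 2 (0.01); with a library left out it ran from -0.30 to 0.01. The members called numbered 3 with array weights, without Csk(+/+) replicate 3 and with the replicate block (Lamp1, Grn and Dnase2a in each), and 1 (Dnase2a) with the GC correction and the replicate block; with a library left out they ran from 0 to 3 higher and 0 lower. Genes called higher and lower, 4 and 4 in the main analysis, numbered 194 and 477 with array weights, 110 and 382 with the replicate block, 90 and 72 with the GC correction and the replicate block, and 16 and 24 when the GC correction was made with Csk(+/+) replicate 3 left out. Without a filter 2 genes were lower. With a library left out the counts ran from 0 to 128 higher and 5 to 283 lower, the highest without Csk(+/+) replicate 3. The median of the 8 genes, 0.52, was 0.40 with a pseudocount of 5, 0.44 with the GC correction, 0.45 with that correction and either the replicate block or Csk(+/+) replicate 3 left out, and 0.46 to 0.54 with a library left out. The replicate numbers are not stated to pair libraries, and the deviations of same-numbered libraries correlated at -0.13 and 0.11; under the block Csk(+/+) replicate 3, which has no partner, no longer contributes to the fold change. With a lone library left in the Csk(f/f) arm, that library is assumed to vary like the Csk(+/+) ones. Depth limits Cln3 and Mcoln1 most, with an estimated 172 and 240 fragments in the library with the fewest.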
